A study of Sus scrofa with 9 samples.

Results

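miR-191 and miR-425 are microRNAs cut from one primary transcript, and their levels were followed here in porcine (Sus scrofa) mature unfertilized oocytes, which wait in metaphase of meiosis II (MII oocytes), in 1-cell embryos with pronuclei (PN embryos) and in mature sperm. Every listed name was taken that began with mir-191 or mir-425 after the species prefix, which gave 4 of the 1313 names in the miRNA table, 2 for each gene. miR-191 was listed as ssc-miR-191_R-1 and as ocu-miR-191-3p_R-2_1ss6GA, and miR-425 as ssc-miR-425-5p and ssc-miR-425-3p_L+1R-2. The prefix gives the species of the matched reference (ssc for pig, ocu for rabbit), and 5p and 3p are the arms of the hairpin. The meaning of the other suffixes was not stated in the sources used here. Both genes were chosen with their levels in these 9 libraries known, so levels, fold changes and the calls of the fit over all names are given as a description and support nothing. A test is given only for the makeup of miR-425 within a library.

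Each group had 3 libraries of small RNA, all labelled as untreated. The oocytes came from ovaries of postpubertal gilts, were matured in vitro and were freed of cumulus cells. The PN embryos were made from such oocytes by in vitro fertilization with semen of Landrace boars, and fertilized eggs were picked by their second polar body. The sequenced sperm were fresh, purified cells of adult Large White boars, a different breed from the boars that fathered the embryos. RNA came from pools of many cells, and it was not stated whether the libraries of a group came from separate pools, so any p-value measures only the spread between these libraries, which may be technical. The study asked which RNAs are high in sperm and in PN embryos but not in MII oocytes.

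A microRNA is cut from a hairpin by the nucleases Drosha and Dicer, and 1 arm of the hairpin is usually kept in an Argonaute protein while the other is degraded. The retained arm pairs through its seed with messenger RNAs and lowers their output. In mammals miR-191 and miR-425 lie in an intron of DALRD3 and are transcribed together. miR-191 is abundant in many tissues, and miR-425 is known to target NPPA, the precursor of atrial natriuretic peptide. In the pig annotation of RefSeq (Sscrofa11.1, the build named in the submitters' processing notes) MIR425 spans 31654994 to 31655073 on chromosome 13 and MIR191 spans 31655484 to 31655563. The 2 hairpin genes are 80 bases long each, lie 410 bases apart and both fall within the bounds of DALRD3 (31650880 to 31656320). The table used gives neither strand nor exons.

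Sperm libraries were the deepest (1640492 to 2455102 counts), followed by those of PN embryos (422630 to 771001) and of MII oocytes (289183 to 381674), so depth and group cannot be told apart. Levels are given as CPM, the count divided by the library total and scaled to 1000000, without a correction for length. Low values were listed irregularly, and a listed 0 may stand for up to 5 reads, which equals 2.04 to 3.05 CPM at the depth of sperm, 6.49 to 11.8 CPM at that of PN embryos and 13.1 to 17.3 CPM at that of MII oocytes. The sperm label was checked with miR-34b, miR-34c, miR-449a and miR-449b, microRNAs of male germ cells and ciliated epithelia, which summed to 151499 to 153743 CPM in sperm but to 2250 to 2455 CPM in PN embryos and 2036 to 2099 CPM in MII oocytes. The egg labels were checked against sperm with miR-371, a microRNA of early embryos, which was listed at 0 in all sperm libraries. Its mean CPM was 1183 ± 98.9 in MII oocytes and 1157 ± 84.0 after fertilization (SD, n = 3), so it does not tell MII oocytes from PN embryos. miR-302, the other early embryo marker listed, had 20.3 ± 13.8 CPM in PN embryos and was at 0 in MII oocytes and sperm. ssc-miR-205_R+1 took up 473620 ± 17711 CPM of the MII oocyte libraries and 453732 ± 3642 CPM of the PN embryo libraries (SD, n = 3), and this large share lowers the CPM of every other name in those groups.

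miR-191 was carried almost entirely by ssc-miR-191_R-1, which was among the leading names of all 3 cell types and far higher in sperm. It was listed with 1441, 1166 and 1228 reads in the MII oocyte libraries 1 to 3, with 2268, 3548 and 4002 reads in the PN embryo libraries and with 112943, 119197 and 174135 reads in the sperm libraries. As CPM, the sperm libraries had 68847, 68764 and 70928, the PN embryo libraries 5366, 5103 and 5191 and the MII oocyte libraries 3775, 3897 and 4246. The 3 groups did not overlap, with MII oocytes lowest, PN embryos next and sperm highest, and the lowest sperm library was 12.8 times the highest PN embryo library. By mean level the name was the 23rd in MII oocytes, the 19th in PN embryos and the 2nd in sperm, where only ssc-miR-30d_R-2 (102656 ± 851 CPM) was higher. Reads of this name were 0.397 ± 0.024% of all counts from MII oocytes, 0.522 ± 0.013% of those from PN embryos and 6.95 ± 0.12% of those from sperm (SD, n = 3). In bulk RNA of this kind, fewer cells of a type and less RNA per cell cannot be told apart.

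The 3p name of miR-191 was listed in sperm alone, at 180, 194 and 287 reads, or 110, 112 and 117 CPM. All 6 libraries of MII oocytes and PN embryos listed it at 0. Its mean in sperm was 113 ± 3.68 CPM (SD, n = 3). The spread of its counts between the sperm libraries gave a chi-square per degree of freedom of 0.247, against 4.21 for ssc-miR-425-3p_L+1R-2, 46.0 for ssc-miR-191_R-1 and 94.6 for ssc-miR-425-5p, which spread beyond sampling noise. This measure grows with the number of reads and does not rank the names by variation. As a percent of the mean, the SD in sperm was 3.26% for the 3p name and 1.76% for ssc-miR-191_R-1. It was 7.78% for ssc-miR-425-3p_L+1R-2 and 5.11% for ssc-miR-425-5p. It ranked 186th in sperm.

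miR-425 was dominated by ssc-miR-425-5p, a minor name in the egg and an abundant one in sperm. It was listed with 43, 34 and 31 reads in the MII oocyte libraries, at least 125 reads in each PN embryo library and 34896, 33941 and 47678 reads in the sperm libraries. As CPM, these were 113, 114 and 107 for MII oocytes, then 296, 221.5 and 289 for PN embryos, then 21272, 19580 and 19420 for sperm. Here too the groups did not overlap, and PN embryo library 2, the lowest of its group, was 1.95 times the highest MII oocyte library. The MII oocyte values rest on few reads, and their exact Poisson intervals together cover 72.8 to 159 CPM, below the 188 CPM at which the interval of the lowest PN embryo library begins. Such intervals hold counting error alone and leave out other spread between libraries. For this name the chi-square per degree of freedom was 4.08 in PN embryos and 0.0323 in MII oocytes. The PN embryo libraries thus spread beyond sampling noise, and their intervals are too narrow for that spread. The methods of the study describe no molecular identifiers, so PCR copies could not be told from separate molecules. The name ranked 199th in MII oocytes, 158th in PN embryos and 14th in sperm, at means of 111 ± 3.47, 269 ± 41.1 and 20091 ± 1026 CPM (SD, n = 3).

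ssc-miR-425-3p_L+1R-2, from the opposite arm, was near the limit of listing or at 0 in MII oocytes and was listed unevenly in PN embryos. It had 6, 0 and 0 reads in MII oocytes, 0, 20 and 36 reads in PN embryos and 601, 733 and 1026 reads in sperm. The levels were 15.7, 0 and 0 CPM, then 0, 28.8 and 46.7 CPM, then 366, 423 and 418 CPM. MII oocytes and PN embryos overlapped, and sperm stood above both. Its mean in sperm was 402 ± 31.3 CPM (SD, n = 3), the 135th of that profile and above that of the 3p name of miR-191.

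**Figure D1:**
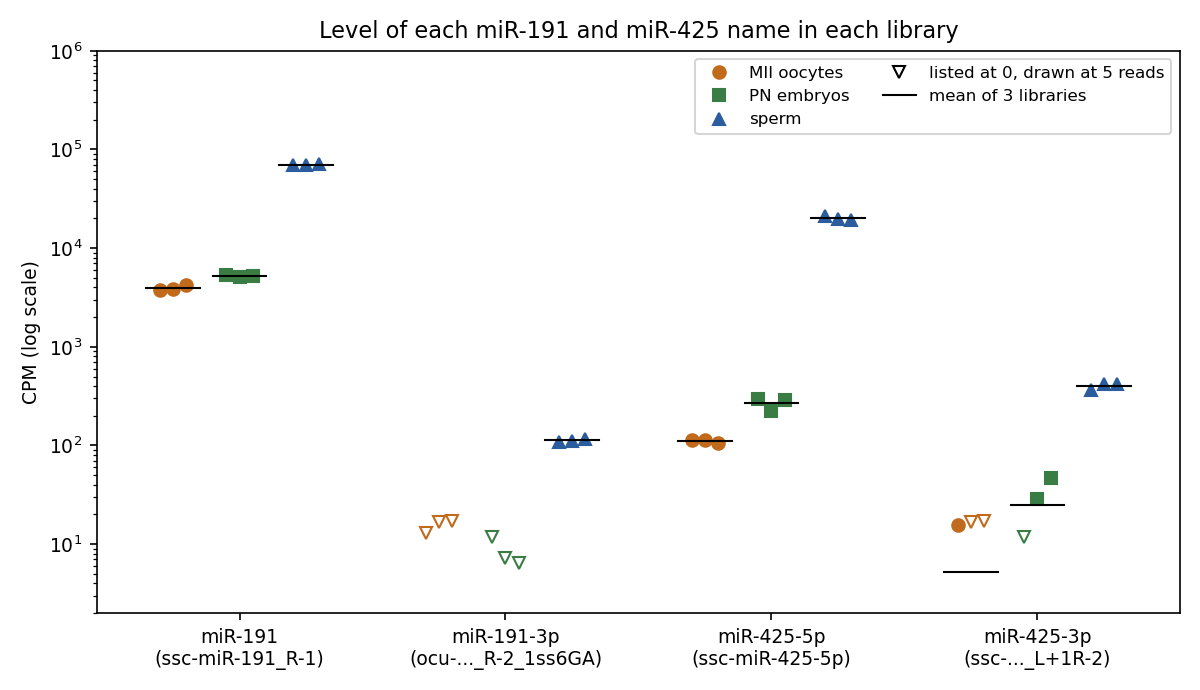
CPM of the 4 names on a log axis, 1 point per library, with bars at the group means and open triangles for libraries listed at 0, drawn at the level of 5 reads (the means take these as 0). ssc-miR-191_R-1 lies between 68764 and 70928 CPM in sperm and between 3775 and 5366 CPM in the other 6 libraries, and the PN embryo points of ssc-miR-425-5p all lie above its MII oocyte points.

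**Figure D2:**
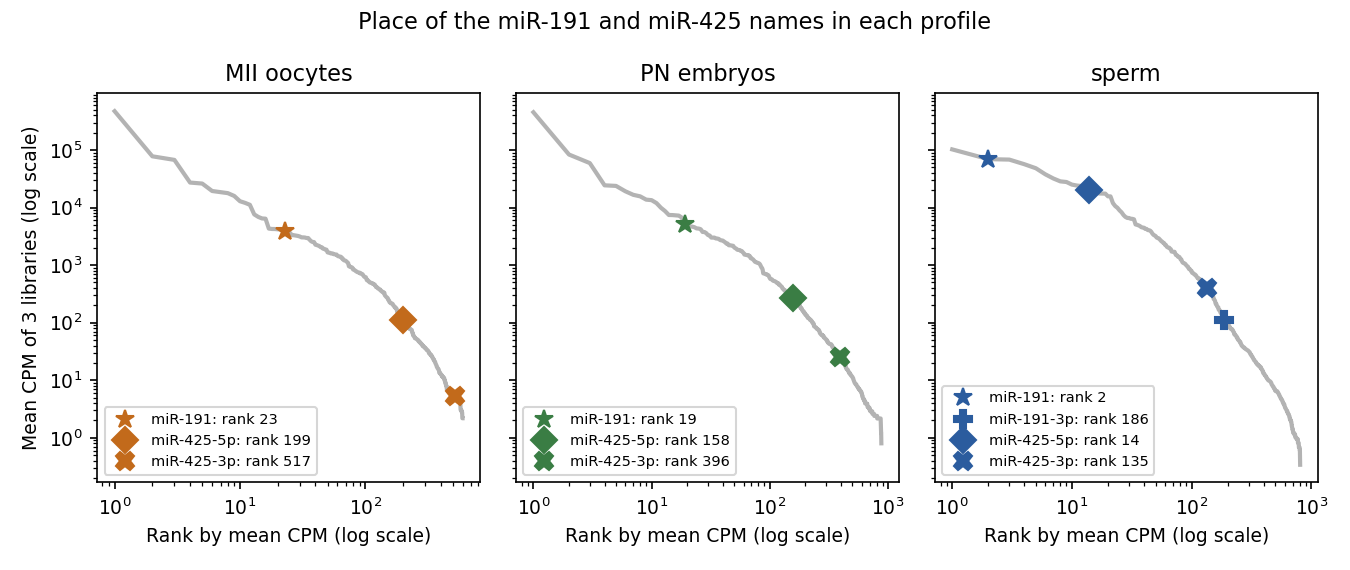
Mean CPM of 3 libraries against rank in each group, both on log axes, with a grey line through all names above 0 and a symbol for each miR-191 or miR-425 name listed. ssc-miR-191_R-1 moves from rank 23 in MII oocytes to rank 2 in sperm, and ssc-miR-425-5p from rank 199 to rank 14.

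Summed over all 4 names, both genes made up 0.409 ± 0.024% of the counts in MII oocytes, 0.551 ± 0.015% in PN embryos and 9.01 ± 0.11% in sperm (SD, n = 3). The fold changes come from one edgeR quasi-likelihood fit over the 587 names that passed the filter on low counts, and the call needed q, the p-value adjusted by Benjamini-Hochberg, to be under 0.05 and the groups to differ by 1 or more on the log2 scale. All 4 names passed that filter, the 3p name of miR-191 through its sperm libraries alone. In sperm against MII oocytes 4 of 4 names were called higher, where 42.2% of all names tested were called higher and 83% in either direction. In sperm against PN embryos 4 of 4 were called higher, beside 38.8% of all names higher and 86.2% in either direction. In PN embryos against MII oocytes 1 of 4 was called, ssc-miR-425-5p, beside 11.2% of all names called higher and 12.9% in either direction. The groups did not overlap for 4, 4 and 2 of the 4 names in these 3 comparisons, beside 45%, 43.1% and 26.9% of all names tested that lay higher without overlap. The names were chosen with these levels known, so nothing is read from the counts, and the comparisons share libraries.

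Between sperm and MII oocytes the log2 fold change was 4.19 ± 0.06 (SE) for ssc-miR-191_R-1 and 7.55 ± 0.12 for ssc-miR-425-5p, and the ratios of mean CPM were 17.5 and 181. ssc-miR-425-3p_L+1R-2 gave 6.06 ± 0.68, which rests on 6 reads in MII oocyte library 1. Without that library all MII oocyte values are 0 and the fit gives 11.8, a number that depends on its prior count. With each listed 0 taken as 5 reads, its lowest sperm library was at least 21.2-fold higher than any MII oocyte library, and the 3p name of miR-191 was at least 6.35-fold higher. Against PN embryos the log2 fold change was 3.86 ± 0.06 for ssc-miR-191_R-1, 6.36 ± 0.10 for ssc-miR-425-5p and 3.93 ± 0.44 for ssc-miR-425-3p_L+1R-2, and the 3p name of miR-191 was at least 9.27-fold higher. The median log2 fold change of the 4 names was 6.81 in sperm against MII oocytes and 5.15 in sperm against PN embryos, or 5.13 and 3.90 with the 3p name of miR-191 at its bound. Over all names tested it was 0 and -0.52. When the counts of miR-205 were left out of the library totals, the log2 difference in CPM of all miR-191 reads between sperm and MII oocytes went from 4.13 to 3.21, and that of all miR-425 reads from 7.46 to 6.54. The summed level of 5 epithelial markers (miR-200a, miR-200b, miR-200c, miR-141 and miR-429) was 6391 to 6905 CPM in sperm against 1359 to 1690 CPM in MII oocytes. Of their names tested, 4 of 6 were called higher and 1 lower, beside 42.2% of all names tested called higher and 83% in either direction. Most of the gap came from miR-200b (4070 against 249 CPM), and miR-141 went the other way (33.1 against 94.8 CPM). The part of epithelial RNA in these differences was not tested.

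In PN embryos both leading names were listed above their levels in MII oocytes, that of miR-425 by the larger fold. ssc-miR-425-5p had a log2 fold change of 1.19 ± 0.15 (SE) and was 2.42 times the mean of MII oocytes. ssc-miR-191_R-1 had 0.32 ± 0.06 and was 1.31 times that mean, below the fold needed for a call although the libraries did not overlap. ssc-miR-425-3p_L+1R-2 gave 2.13 ± 1.11 with overlapping libraries, and the 3p name of miR-191 was at 0 in both groups. The median over the 4 names was 0.76, beside 0.08 over all names tested.

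The difference between PN embryos and MII oocytes was small beside the level in sperm. It was 1247 CPM for ssc-miR-191_R-1, or 1.79% of the mean in sperm, and 158 CPM for ssc-miR-425-5p, or 0.785%. For ssc-miR-425-3p_L+1R-2 it was 19.9 CPM, or 4.95%, a value that rests on few reads and on overlapping libraries. For the sperm markers the same measure was 0.867% for miR-34b, -0.404% for miR-34c and 0.224% for miR-449a, so these markers did not share one value or one sign, and miR-449b was at 0 in both groups. Some markers of blood cells moved in the same comparison. The summed level of miR-451, miR-144, miR-486, miR-142 and miR-223 was 837 to 875 CPM in PN embryos against 166 to 314 CPM in MII oocytes. Of these, 2 of 5 names tested were called higher, beside 11.2% of all names tested. Most of the gap came from miR-451 (509 against 102 CPM) and miR-144 (154 against 24.3 CPM). miR-486 (139 against 93.2 CPM) was not called, miR-223 had 15.5 against 0 CPM, and miR-142 hardly differed (34.3 against 33.2 CPM). Markers of follicle and cumulus cells (miR-202, miR-224, miR-383, miR-143 and miR-145) had 1074 to 1172 CPM in PN embryos against 851 to 1360 CPM in MII oocytes and a median log2 fold change of 0.24 over 6 names tested. What part these cells had in the levels of miR-191 and miR-425 was not tested.

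**Figure D3:**
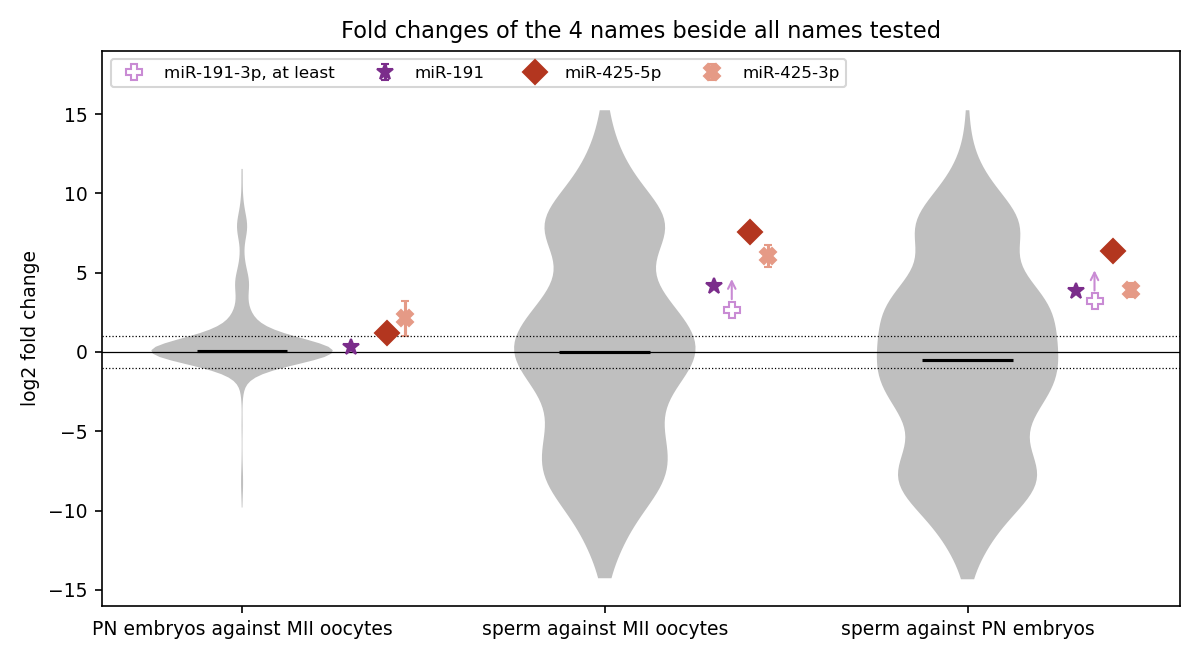
Log2 fold change in the 3 comparisons, with grey violins for all 587 names tested, a black bar at their median, dotted lines at 1 and -1, and symbols with SE bars for the miR-191 and miR-425 names. Open crosses with arrows are lower bounds for the 3p name of miR-191, which has no symbol in PN embryos against MII oocytes because both groups were at 0. Of the fitted symbols ssc-miR-425-5p stands highest in both comparisons with sperm, at 7.55 and 6.36.

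The balance of the 2 genes, which does not depend on the library total, differed between the groups. There were 29.4, 34.3 and 39.6 reads of miR-191 per read of miR-425 in the MII oocyte libraries, 18.1, 20.4 and 15.5 in the PN embryo libraries and 3.19, 3.44 and 3.58 in the sperm libraries. The ranges did not overlap. miR-425 thus made up 2.86 ± 0.41% of the reads of both genes in MII oocytes, 5.33 ± 0.71% in PN embryos and 22.7 ± 1.05% in sperm (SD, n = 3). The order follows from the fold changes above and is given without a test. Over the 3 MII oocyte libraries the exact 95% binomial intervals covered 1.68 to 4.32%, and the interval of PN embryo library 2, the lowest of its group, began at 4.02%, so these overlap slightly. The mean log2 ratio of miR-425 to miR-191 was -5.10 ± 0.21 in MII oocytes, -4.16 ± 0.20 in PN embryos and -1.77 ± 0.09 in sperm. With only the leading name of each gene it was -5.16, -4.29 and -1.79.

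Other microRNAs known to be processed from a shared transcript were read the same way, as sums over their names. The group means of the log2 ratio spanned 3.33 for miR-425 over miR-191 and 3.10 for miR-25 over miR-93, which had -0.97 in MII oocytes, -0.81 in PN embryos and 2.13 in sperm. A wide span was therefore not limited to miR-191 and miR-425. The span was 2.09 for miR-212 over miR-132 and 1.49 for miR-497 over miR-195. It was 0.35 for miR-222 over miR-221 and 0.24 for miR-183 over miR-182, the narrowest spans among these pairs. From MII oocytes to PN embryos the ratio of miR-425 to miR-191 was higher by 0.93, and the other 5 pairs differed by -0.51 to 0.31. miR-145 with miR-143 and miR-451 with miR-144 lacked reads in some libraries and are left out of this comparison.

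**Figure D4:**
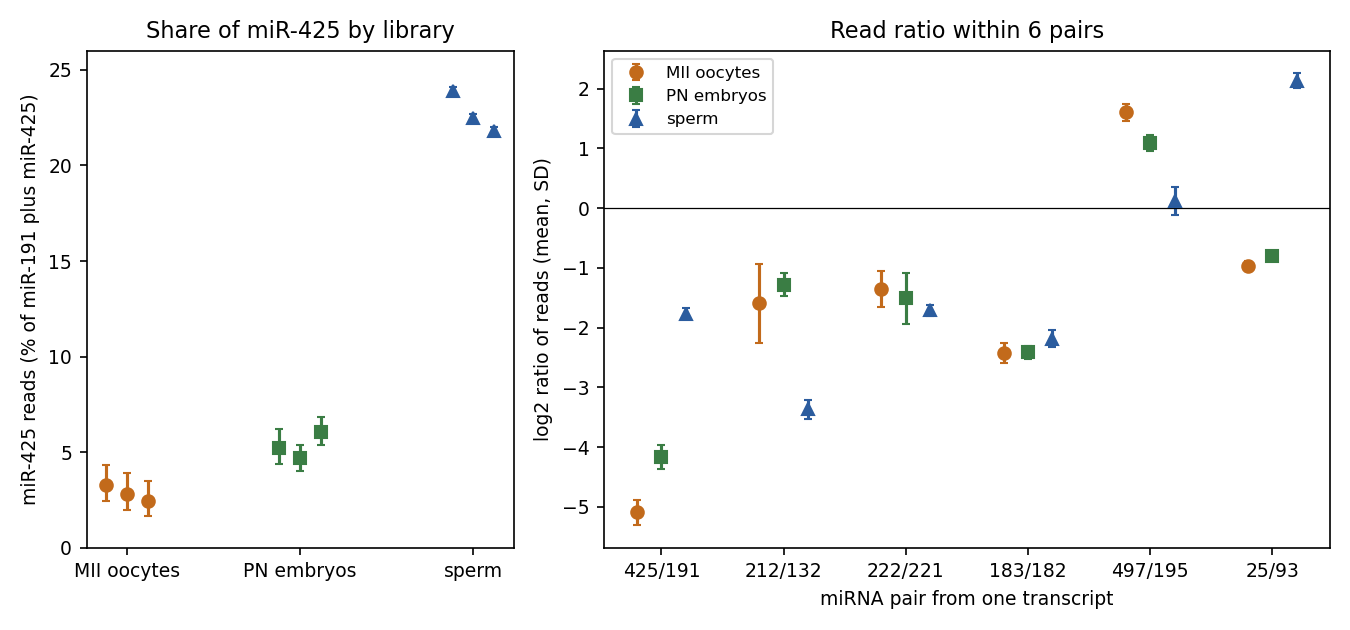
On the left, miR-425 reads as a percent of miR-191 plus miR-425 reads, 1 point per library with its exact 95% binomial interval. On the right, the log2 read ratio within 6 pairs of microRNAs, as mean and SD of 3 libraries per group. The miR-425 share lies between 2.46 and 3.29% in MII oocytes, between 4.67 and 6.08% in PN embryos and between 21.8 and 23.9% in sperm, and the pair of miR-25 and miR-93 spans nearly as wide a range of ratios.

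The choice of the genes did not use the makeup of each gene within a library. The 3p name held 0.159, 0.162 and 0.165% of the miR-191 reads in sperm, 661 of 406936 reads in all. It held 0 of 3835 reads in MII oocytes and 0 of 9818 in PN embryos. With 6 libraries at 0, the order of the groups was fixed by the name being listed in sperm alone, so no p is given. By counting error alone, the exact 95% binomial limit was 0.0961% for the pooled reads of MII oocytes and 0.0376% for those of PN embryos, below the 0.150 to 0.175% of the pooled sperm reads. In single MII oocyte libraries it was 0.256, 0.316 and 0.300%. A listed 0 that stands for 5 reads would make 0.346 to 0.427% in MII oocytes and 0.125 to 0.220% in PN embryos, so that unlisted reads could hide a share as high as that of sperm.

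The 3p arm of miR-425 took 1.69, 2.11 and 2.11% of the reads of its gene in sperm. In MII oocytes it took 6 of 49 reads in library 1 (12.2%, 95% interval 4.63 to 24.8%) and 0 of 34 and 0 of 31 in the others. In PN embryos it took 0 of 125 reads in library 1 (up to 2.91%), 20 of 174 in library 2 (11.5%, 7.16 to 17.2%) and 36 of 259 in library 3 (13.9%, 9.93 to 18.7%). Libraries of 1 group thus differed from 0 to over 11%, and the groups overlapped in each of the 3 comparisons. The two-sided exact permutation p was 0.4 for sperm against PN embryos, 0.7 for PN embryos against MII oocytes and 1 for sperm against MII oocytes (0.8, 1 and 1 after Benjamini-Hochberg adjustment over the 6 share tests of both genes). The adjustment counted the miR-191 tests, whose outcome was fixed by the listing. The smallest p that 3 libraries against 3 can give is 0.1. Intervals of PN embryo libraries 2 and 3 lay above the 1.56 to 2.27% covered by the sperm libraries, and PN embryo library 1 did not share this. Without MII oocyte library 1 the sign of the difference between sperm and MII oocytes turned, from 2.11 points lower in sperm to 1.97 points higher. Without PN embryo library 1 the share in sperm was 10.7 points below that of PN embryos, and without PN embryo library 3 it was 3.78 points below, where all libraries gave 6.49. With a listed 0 taken as 5 reads sperm lay 11.01 points below MII oocytes and 7.78 below PN embryos. By itself, that setting places the libraries listed at 0 above all sperm libraries, because they hold few miR-425 reads. It makes 12.8 and 13.9% in MII oocyte libraries 2 and 3 and 3.85% in PN embryo library 1. The order was thus fixed by the setting, and no p is given for it.

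**Figure D5:**
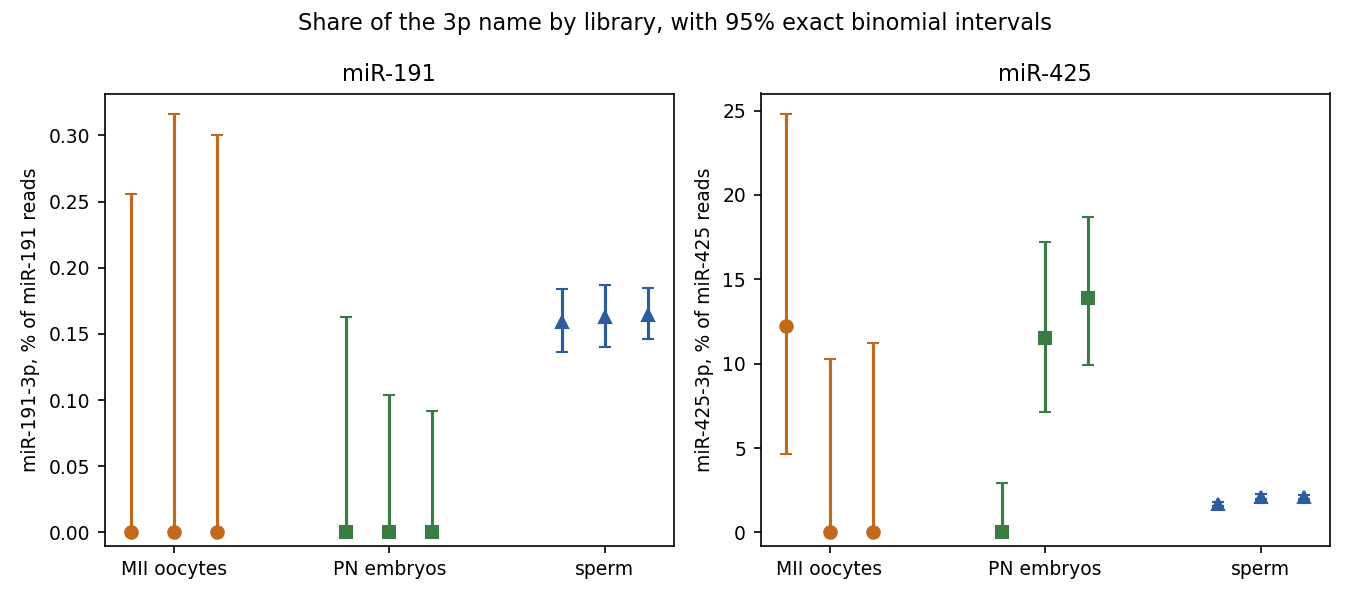
Share of the 3p name among the reads of its gene, 1 point per library with its exact 95% binomial interval, for miR-191 on the left and miR-425 on the right (the vertical axes differ). Sperm lies at 0.159 to 0.165% for miR-191 and at 1.69 to 2.11% for miR-425, and the libraries of MII oocytes and PN embryos that list the 3p arm of miR-425 lie at 11.5 to 13.9%.

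Among names that are no members, those most like each leading name were found by Pearson's r of log2(CPM + 1) over the 9 libraries, which mostly reflects the 3 groups. For ssc-miR-191_R-1 they were ssc-miR-30b-5p, ssc-miR-92a, cfa-let-7b, ssc-miR-99a-5p_R+1 and ocu-miR-34b-3p_1ss10CT, at r from 0.997 to 1.000. For ssc-miR-425-5p they were ocu-miR-34b-3p_1ss10CT, ssc-miR-132, ssc-miR-99a-5p_R+1, ssc-miR-16 and ssc-mir-1285-p5, at r from 0.996 to 0.999. The 2 leading names had an r of 0.997 with each other. Such values were common for ssc-miR-191_R-1, with an r over 0.99 for 104 of 583 other names. They were rarer for ssc-miR-425-5p, with 17 of 583. All names listed here for either leading name had the same order of group means, with MII oocytes lowest and sperm highest. ssc-miR-30b-5p, for example, had 18105 ± 159 CPM in sperm, 1051 ± 22.6 in PN embryos and 837 ± 5.57 in MII oocytes (SD, n = 3).

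Families of abundant microRNAs gave the setting for these levels. In sperm against MII oocytes, where 42.2% of all names were called higher and 83% in either direction, 11 of 12 names of miR-34 and miR-449 were called higher and 1 lower, 13 of 17 names of let-7 and miR-98, which restrain growth genes, were higher and the other 4 were not called, and 5 of 8 names of miR-30 were higher and 2 lower. The 4 names of miR-183, miR-96 and miR-182, a cluster of sensory cells, had log2 fold changes from -0.86 to -0.31. In PN embryos against MII oocytes 1 of 12 names of miR-34 and miR-449 was called higher, near the 11.2% of all names, and the median log2 fold change was -0.18 for miR-30, 0.06 for let-7 and miR-98 and -0.16 for miR-183, miR-96 and miR-182. ssc-miR-34c, a germ cell microRNA with a sperm level of 68225 ± 2617 CPM (SD, n = 3) close to that of ssc-miR-191_R-1, had a log2 fold change of -0.40 ± 0.07 (SE) in PN embryos against MII oocytes and was not called.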

How the data were processed

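Small RNA libraries were made and sequenced by the study. For each miRNA name the authors deposited an estimated count of reads, marked as raw and not normalized. The genome build was Sscrofa 11.1 per the submitters' processing notes, and the aligner and miRNA caller were not given in the sources used here. All member values were whole, and 0 columns of other samples were present. Rows of 1 name were summed (1420 rows, 1313 names), counts were rounded, and all 9 libraries entered 1 edgeR 4.0.16 quasi-likelihood fit in R 4.3.3 (TMM, filterByExpr with a minimum count of 10, group as factor, no block). The call rule was q under 0.05 and a log2 difference of 1 or more in size. Shares of miR-425 names were compared by two-sided exact permutation tests in scipy 1.17.1. Of these steps, the edgeR fit was tested on simulated data. Members, gene lists and named genes were chosen with earlier results of these data known. Named were all names of both genes, for each leading name the 5 names with the highest r, 8 pairs from shared transcripts, 4 families with their most abundant names, and 5 lists of cell type markers. The early embryo list matched 2 of 5 markers (miR-371 and miR-302) and the sperm list 4 of 5. Alternatives were other scalings, filters and call rules, DESeq2 1.42.0, equal depth, a replicate block, names of identical counts taken once, pig names alone and leaving out each library. Replicate numbers did not pair libraries across groups (r of deviations from -0.21 to 0.03, 0 of 9 over 0.1).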

Additional observations from a re-analysis of the deposited data

How the results depend on the processing

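The number of names called in PN embryos against MII oocytes was 1, and it was 2 at q under 0.05 alone (ssc-miR-191_R-1 added) and 2 without PN embryo library 1 (ssc-miR-425-3p_L+1R-2 added, log2 fold change 2.52). Leaving out each library in turn gave 1 to 2 names there and 4 to 4 in both comparisons with sperm. The log2 fold change of ssc-miR-425-5p after fertilization was between 1.02 with libraries thinned to equal depth and 1.41 with identical names counted once, and that of ssc-miR-191_R-1 was between 0.29 and 0.53. For ssc-miR-425-3p_L+1R-2 leaving out libraries gave 1.40 to 7.78 after fertilization and 5.67 to 11.8 in sperm against MII oocytes, the highest of each without MII oocyte library 1, where MII oocytes are all at 0. With the replicate block the calls were 1, 4 and 4, as without it. Replicate numbers did not pair the libraries.

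Without miR-205 in the library totals, the log2 difference of summed miR-191 was 3.21 in sperm against MII oocytes and 2.86 against PN embryos (4.13 and 3.74 as reported), and that of summed miR-425 was 6.54 and 5.26 (7.46 and 6.13 as reported). Under TMM scaling summed miR-191 was 3.87 in sperm against PN embryos. With a listed 0 taken as 5 reads, the share of the leading name turned sign for miR-191 in sperm against MII oocytes (0.231 points, -0.162 as reported) and for miR-425 in PN embryos against MII oocytes (3.24, -4.38 as reported, and -3.24 for the 3p arm). Without MII oocyte library 1 the share of the leading name of miR-425 in sperm against MII oocytes was -1.97 points (2.11 as reported, and 1.97 for the 3p arm). Leaving out each library gave -1.97 to 4.15 for the leading name in that comparison and -4.15 to 1.97 for the 3p arm. For the leading name it gave 3.78 to 10.7 points in sperm against PN embryos (6.49 as reported, the highest without PN embryo library 1) and -8.62 to -1.67 in PN embryos against MII oocytes (-4.38 as reported, the lowest without PN embryo library 1). With a listed 0 as 5 reads sperm against MII oocytes was 11.01 points, and the miR-191 share in sperm against PN embryos differed by -0.00022 points. The cause of these changes was not tested beyond how each alternative is built. With pig names alone miR-191 has 1 name and its share has no value. Depth limits the 3p names most, since in MII oocytes 5 reads equal 13.1 to 17.3 CPM.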
